A study of Mus musculus with 4 samples.

Results

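The genes described here are those on the human mitochondrial chromosome, chrM. They were taken as every entry of the count files that lies on chrM, which gave 37 of 64253 genes. Of these, 13 encode proteins, 2 encode ribosomal RNAs (rRNAs) and 22 encode transfer RNAs (tRNAs), the full gene set of human mitochondrial DNA. All 37 had a count in each of the 4 libraries.

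Each library was made from 1 ng of total RNA. The RNA came from CD11a-high CD8+ T cells that had been flow-sorted out of the peripheral blood of patients. CD11a is an integrin chain, and a high level of it marks antigen-experienced CD8+ T cells. An antibody against PD-1, an inhibitory receptor of T cells, was given every 3 weeks, and 4 doses made up a cycle. The 4 groups cross response with time, so that responders and non-responders are each represented by 1 library from before and 1 from after therapy. The labels do not say whether a library came from 1 patient or several, and they do not tie the libraries from before and after therapy to the same patients. The series text speaks of 2 cohorts. In the sample titles, the 2 libraries taken before therapy are tagged as positive for PD-1 and the other two are not, so the gates may have differed between the times. One label places the collection of every sample after therapy, and the group label, which separates before from after, was followed. Mouse is given as the organism in the labels, but the genes in the files are human, on build hg38.

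Mitochondrial DNA is a small circle that each cell carries in many copies. Both of its strands are copied by the mitochondrial RNA polymerase into long transcripts that run through many genes, and enzymes cut these at the tRNAs that stand between most of the other genes. The amounts of the separate RNAs are then set largely by how stable each one is. The protein-coding genes encode subunits of the respiratory complexes I, III, IV and V, whose other subunits, and all of complex II, are made from nuclear genes. The rRNAs and tRNAs serve the ribosomes that translate these mRNAs inside the organelle. In T cells, respiration by these complexes is known to support memory and persistence.

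The mitochondrial genes gave 4.03% of all counts in the responder and 5.43% in the non-responder before therapy. After therapy they gave 3.37% in the responder and 4.75% in the non-responder. Both responder libraries lay below both non-responder libraries. The total counts ranged from 65500644 to 129773591, so the Wilson 95% interval of each share was narrow, for example 4.02% to 4.03% in the responder before therapy. Such intervals, and all those below, cover counting error only. No molecular identifiers are stated, so reads copied from the same molecule cannot be told apart and the intervals may be too narrow. The mean share was 3.70% in responders and 5.09% in non-responders, a difference of -1.39 percentage points (2 libraries in each arm, exact two-sided permutation p = 0.333, the smallest that 4 libraries allow). The mean share was 4.73% before and 4.06% after therapy, a difference of -0.667 percentage points (exact two-sided permutation p = 0.667). In sorted cells that are sequenced as a bulk, fewer cells rich in mitochondrial RNA and less mitochondrial RNA in each cell cannot be told apart.

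**Figure D1:**
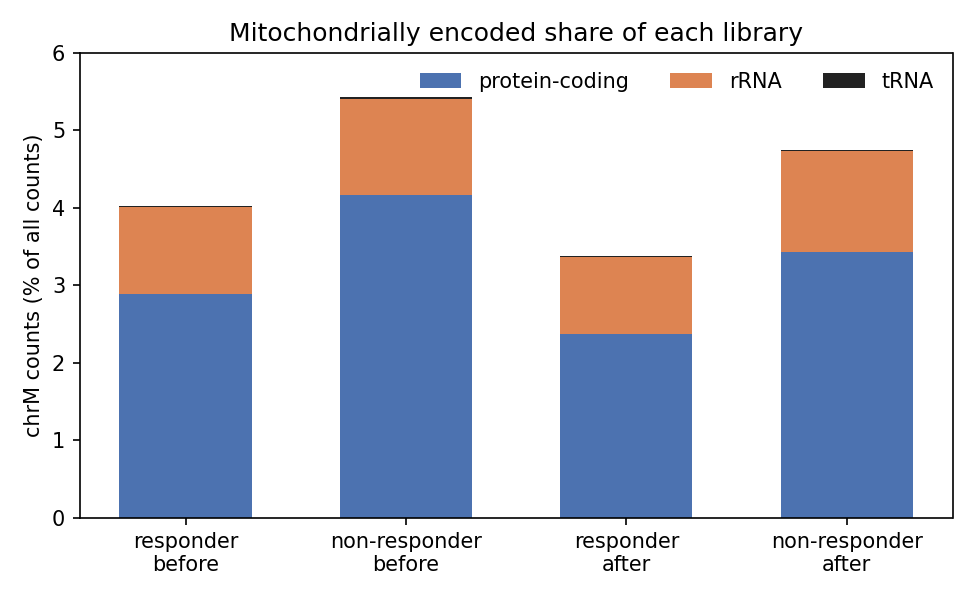
Mitochondrial counts as a percentage of all counts in each of the 4 libraries (1 library per bar), split into protein-coding, rRNA and tRNA genes. The 2 non-responder bars, at 5.43% and 4.75%, stand above the 2 responder bars, at 4.03% and 3.37%, and the tRNA layer is barely visible.

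Most of these counts came from the protein-coding genes. They held 71.6% of the mitochondrial counts in the responder and 76.7% in the non-responder before therapy, and 70.3% and 72.1% after it. The rRNAs held 28.1%, 23.0%, 29.3% and 27.6% in the same order of libraries, which is kept in all lists of 4 values below: responder before, non-responder before, responder after, non-responder after. The tRNAs held 0.303%, 0.297%, 0.344% and 0.241%. Among the 50 most abundant genes of each library, 8, 9, 8 and 8 were mitochondrial.

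Levels are given as CPM, counts scaled to a total of 1e6 per library. To compare genes with each other, CPM was divided by gene length in kilobases. How well the cDNA step captured each RNA was not measured, so these values compare counts and may not give amounts of RNA. Per kilobase, MT-CO2, MT-RNR2 and MT-CO1 held the top 3 places in every library, followed by MT-CO3, MT-CYB and MT-ATP6. MT-CO2 led before therapy, at 6945 CPM per kilobase in the responder and 8434 in the non-responder, and MT-RNR2 led after it, at 6182 and 8091. The bottom of the order was also shared: MT-ND2, MT-ND1, MT-RNR1 and MT-ND3 took the last 4 places in all 4 libraries. MT-ND3 stood at 167, 283, 165 and 270 CPM per kilobase. The highest protein-coding gene exceeded the lowest by 41.7-fold, 29.8-fold, 27.5-fold and 23.9-fold, although all but 1 of these genes are read from the same strand. In the middle of the order, MT-ATP8 stood below MT-ND4L and MT-ND4 in the responder before therapy and above both in the other 3 libraries.

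**Figure D2:**
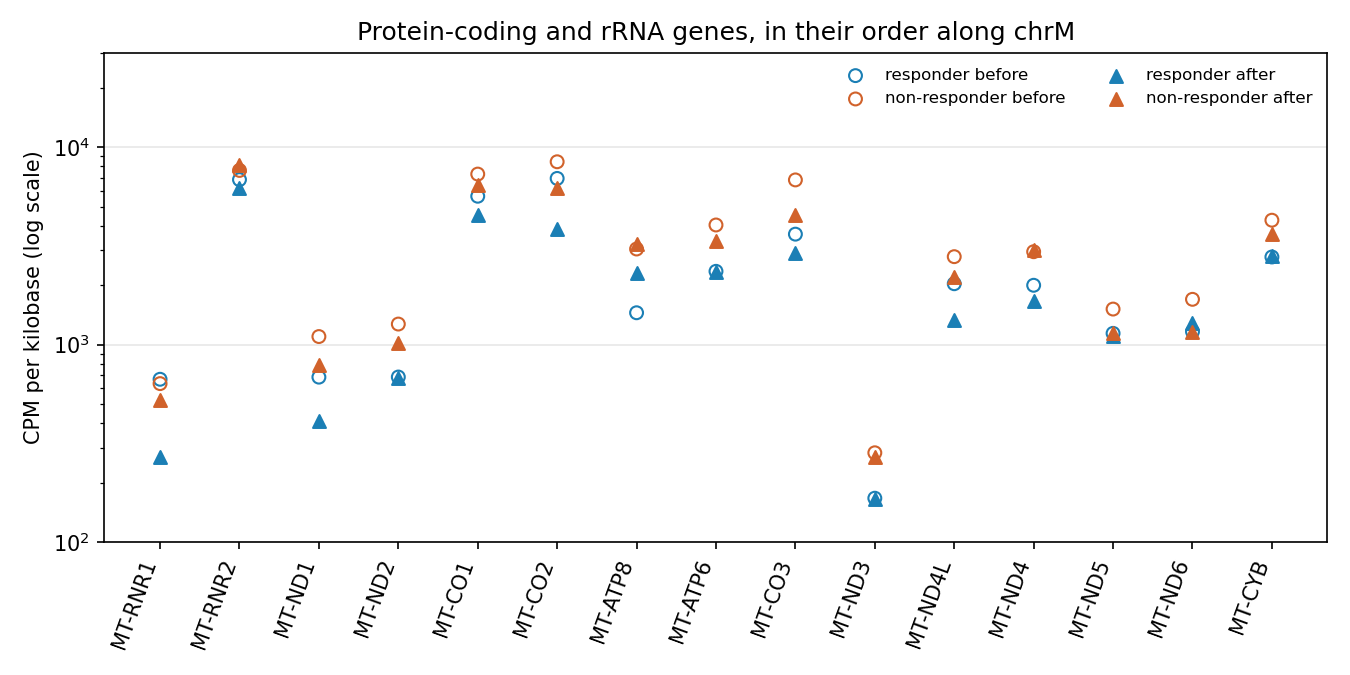
Level of each protein-coding and rRNA gene in CPM per kilobase (log scale), in gene order along chrM, with 1 point per library. For MT-ND1, MT-ND2, MT-CO1, MT-ATP6, MT-CO3 and MT-ND3 both non-responder points lie above both responder points. MT-RNR1 and MT-ND3 lie lowest.

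Complex IV, cytochrome c oxidase, hands electrons to oxygen, and its 3 mitochondrially encoded subunits form the catalytic core. They gave 56.5%, 53.8%, 50.3% and 51.8% of the protein-coding mitochondrial counts. MT-CO1 (ENSG00000198804, hg38 chrM 5904 to 7445), the subunit that holds the oxygen-reducing site, stood at 8701, 11266, 6999 and 9950 CPM. Both responder libraries lay below both non-responder libraries. This pattern, which recurs below, was found in 14.2% of the 11560 genes that reached 5 CPM in a library of each pair. The responder was 1.29-fold lower before therapy and 1.42-fold lower after it. MT-CO2 (ENSG00000198712, chrM 7586 to 8269), which takes electrons from cytochrome c, stood at 4751, 5769, 2642 and 4251 CPM. Here the groups overlapped, since the responder before therapy was above the non-responder after it. MT-CO3 (ENSG00000198938, chrM 9207 to 9990), the third core subunit, stood at 2842, 5351, 2281 and 3558 CPM. Before therapy it was 1.88-fold lower in the responder and 1.56-fold lower after it, and the groups did not overlap.

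Complex I, NADH dehydrogenase, is the entry point for electrons from NADH, and 7 of its subunits, which build the proton-pumping membrane arm, come from chrM. Together they gave 25.9%, 26.4%, 27.5% and 27.4% of the protein-coding mitochondrial counts. MT-ND1 (ENSG00000198888, chrM 3307 to 4262), which lies at the ubiquinone site, stood at 654, 1050, 390 and 752 CPM. Before therapy it was 1.61-fold lower in the responder and 1.93-fold lower after it. MT-ND2 stood at 713, 1323, 705 and 1058 CPM, and MT-ND4 at 2752, 4070, 2302 and 4163 CPM. Both encode proton-pumping subunits related to bacterial antiporters. MT-ND4L, whose end overlaps the start of MT-ND4 by 7 bases, stood at 604, 828, 397 and 651 CPM. MT-ND3 stood at 57.6, 97.9, 57.1 and 93.5 CPM. In these 5 genes both responder libraries were below both non-responder libraries, as in 14.2% of the 11560 genes above. MT-ND5 (chrM 12337 to 14148), the longest of the 37 genes, stood at 2065, 2741, 1994 and 2072 CPM, so that after therapy the libraries were only 1.04-fold apart. MT-ND6 (ENSG00000198695, chrM 14149 to 14673) is the only protein-coding gene read from the other strand. It stood at 611, 890, 673 and 606 CPM and was the only one of the 13 that was higher in the responder after therapy.

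Complex III passes electrons to cytochrome c, and its only mitochondrially encoded subunit is cytochrome b. MT-CYB (ENSG00000198727, chrM 14747 to 15887) stood at 3169, 4867, 3212 and 4157 CPM. The responder libraries were close to each other and below both non-responder libraries, by 1.54-fold before therapy and 1.29-fold after it. Complex V, the ATP synthase, has 2 such subunits in its membrane part, MT-ATP8 and MT-ATP6. Their genes overlap by 46 bases, so reads in the overlap cannot be assigned to either. MT-ATP8 (ENSG00000228253, chrM 8366 to 8572) stood at 300.0, 631, 476 and 666 CPM. Before therapy it was 2.10-fold lower in the responder, the largest difference among the protein-coding genes in that pair, and 1.40-fold lower after it. MT-ATP6 (ENSG00000198899, chrM 8527 to 9207), which forms the proton channel, stood at 1600, 2747, 1588 and 2279 CPM. The ratio of MT-ATP8 to MT-ATP6 per kilobase was 0.617 and 0.756 before therapy, and 0.985 and 0.961 after it. These ratios leave out reads counted at nuclear copies, described below. Such counts equalled 23.3% to 36.4% of MT-ATP6 but 2.02% to 5.13% of MT-ATP8, so the ratios are uncertain.

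The rRNAs behaved less alike. MT-RNR2 (ENSG00000210082, chrM 1671 to 3229) encodes the 16S rRNA of the large subunit of the mitochondrial ribosome. It was the most abundant mitochondrial transcript by counts in every library, at 10677, 11887, 9637 and 12614 CPM. Both responder libraries lay below both non-responder libraries, by 1.11-fold before therapy and 1.31-fold after it. MT-RNR1 (ENSG00000211459, chrM 648 to 1601) encodes the 12S rRNA of the small subunit. It stood at 636, 605, 256 and 497 CPM, so that the responder after therapy was apart from the other three. Per kilobase, the counts of MT-RNR2 exceeded those of MT-RNR1 by 10.3-fold, 12-fold, 23.1-fold and 15.5-fold, although both RNAs serve in equal number in the ribosome. These are ratios of counts and may not be ratios of RNA amount.

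The tRNAs are shorter than the paired reads that were sequenced, and a count at a tRNA can come from a longer precursor that still holds it, so tRNA levels are not levels of mature tRNA. Their summed level was 122, 161, 116 and 114 CPM. Only 8 of the 22 reached 5 CPM in any library, and 14 had under 500 counts in every library. The 4 tRNA genes with the most counts gave 56.3%, 51.7%, 66.6% and 52.1% of the tRNA counts. MT-TL1, the gene of 1 of the leucine tRNAs, stood at 26.9, 22, 11.2 and 17.9 CPM. MT-TC, for cysteine, stood at 17.0, 23.5, 14.2 and 16.7 CPM. MT-TY, for tyrosine, which shares 1 base with MT-TC, stood at 17.1, 22.5, 14.4 and 16.5 CPM. The levels of this neighbouring pair were close to each other in all 4 libraries.

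MT-TE (ENSG00000210194, chrM 14674 to 14742), the gene of the glutamate tRNA, stood apart from all other members. Its counts were 598, 1005, 4843 and 980, which is 7.58, 15.3, 37.3 and 8.49 CPM. The responder after therapy was the highest of the 4 libraries for MT-TE and for no other member. It was 4.40-fold above the non-responder after therapy (95% counting interval of the log2 ratio 2.04 to 2.24) and 4.92-fold above the responder before therapy (2.18 to 2.42). MT-TE gave 32.2% of the tRNA counts in that library and 6.22% to 9.52% in the others. Without it the summed tRNA level was 114, 146, 78.6 and 106 CPM, lowest in the responder after therapy. MT-TE lies between MT-ND6, on its own strand, and MT-CYB, on the other. The strand setting of the counts is not given, so a read across this stretch from either strand could be counted in it.

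**Figure D3:**
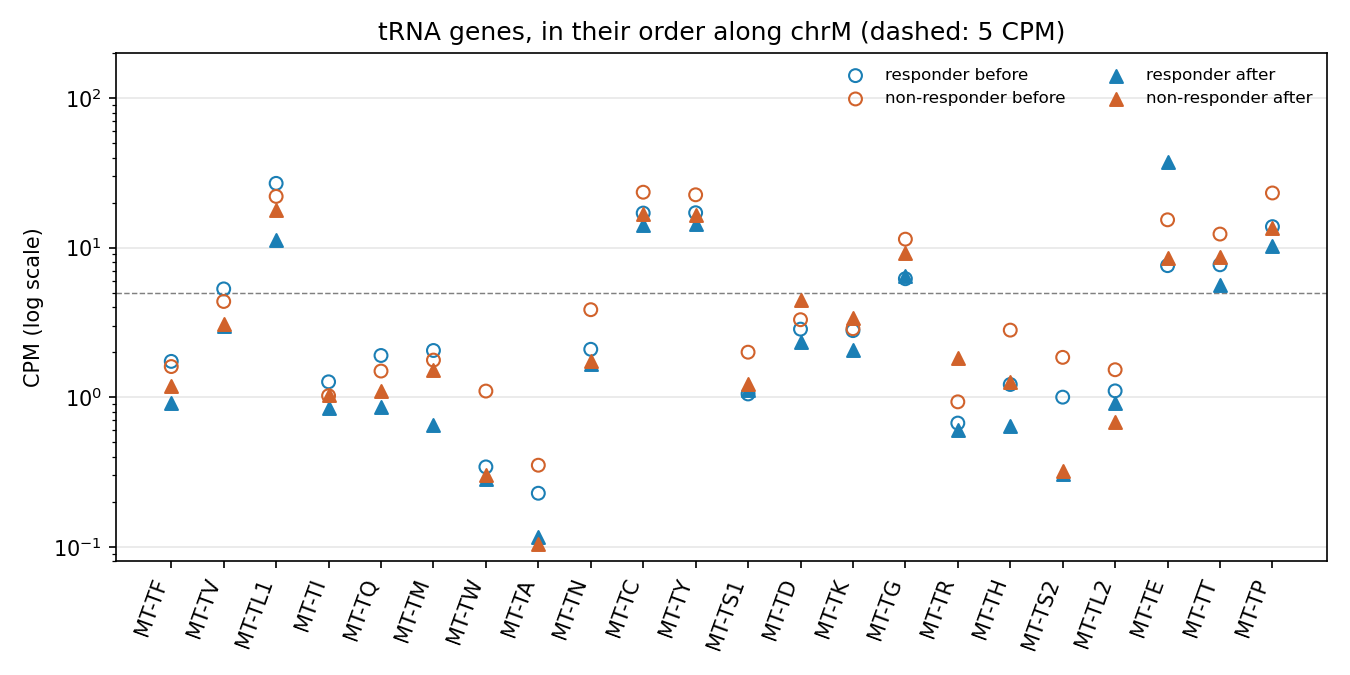
CPM of each of the 22 tRNA genes (log scale) in gene order along chrM, with 1 point per library and a dashed line at 5 CPM. MT-TE in the responder after therapy, at 37.3 CPM, is the highest point, and most other tRNA genes are lowest in that library.

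The tRNA counts also differed by the strand of the gene. The strand setting of the counts is not given, so counts at these genes may include reads from the opposite strand. Genes read from the same strand as MT-ND6 number 9, of which 8 are tRNAs. The median level of these 8 tRNA genes was 69.2, 138, 87.3 and 73.6 CPM per kilobase, against 27.3, 36.0, 12.9 and 25.3 for the other 14. The ranges overlapped widely. In the responder before therapy they were 3.31 to 259 for the 8 and 5.03 to 359 for the 14. The 9 genes together held 1.67%, 1.81%, 2.23% and 1.40% of the mitochondrial counts. This was highest in the responder after therapy, and stayed so without MT-TE, at 1.65%, 1.78%, 2.12% and 1.38%.

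The comparison of responder with non-responder asked whether mitochondrial transcripts separated the outcome groups. With 1 library in each group, a difference between a pair of libraries has no replicate check and no p-value. Each is given as a log2 ratio of CPM, and a gene counts as apart when the levels differed at least 2-fold with at least 5 CPM in either library. Before therapy, 14 of the 15 protein-coding and rRNA genes were lower in the responder, and their median log2 ratio was -0.56 (range -1.07 for MT-ATP8 to 0.07 for MT-RNR1). Of all 12435 genes with at least 5 CPM, 41.7% were lower, and the median was 0.15. After therapy 14 of the 15 were again lower, as were 43.4% of 12366 genes. The median of the 15 was -0.58 (range -0.96 for MT-RNR1 to 0.15 for MT-ND6) against 0.09 for all genes. Most of these differences were under 2-fold. Before therapy MT-ATP8 and, among the tRNAs with 5 CPM, MT-TE were at least 2-fold lower, where 7.70% of all genes were, and no member was 2-fold higher, where 13.6% of all genes were. After therapy only MT-TE was apart: it was 2-fold higher, as were 6.15% of all genes, while 8.64% of all genes were 2-fold lower. Of all genes, 16.8% before therapy and 15% after it had a ratio below the median of the 15.

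The ratio of each complex shows how much members varied. Before therapy the log2 ratios of the complex I genes ran from -0.89 (MT-ND2) to -0.41 (MT-ND5), and after therapy from -0.95 (MT-ND1) to 0.15 (MT-ND6). Those of complex IV ran from -0.91 (MT-CO3) to -0.28 (MT-CO2) before therapy, and from -0.69 (MT-CO2) to -0.51 (MT-CO1) after it. MT-ATP6 and MT-ATP8 were at -0.78 and -1.07 before therapy, and at -0.52 and -0.49 after it. MT-CYB was at -0.62 and -0.37. The order of the members within a complex was thus not kept: MT-CO3 was the lowest of its complex before therapy and MT-CO2 after it.

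Lower in the responder at both times were 12 of the 13 protein-coding genes, all but MT-ND6. The same held for 1 of the 2 rRNA genes, MT-RNR2. The background was 24.9% of the 11560 genes that reached 5 CPM in a library of each pair. Only 7 tRNA genes met that minimum, of which 5 were lower at both times. Over all 22 tRNA genes, most of them below it, 13 were. MT-RNR1 joined them with TMM or DESeq2 scaling, where its ratio before therapy was -0.01 and -0.03. Both responder libraries were below both non-responder libraries for 11 of the 13, all but MT-CO2 and MT-ND6, for MT-RNR2 and for 2 of those 7 tRNA genes. The background for this pattern was 14.2% of the same 11560 genes. No member was higher in the responder at both times. The 15 genes are cut from shared transcripts and counted in the same libraries, so they are not independent of each other.

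**Figure D4:**
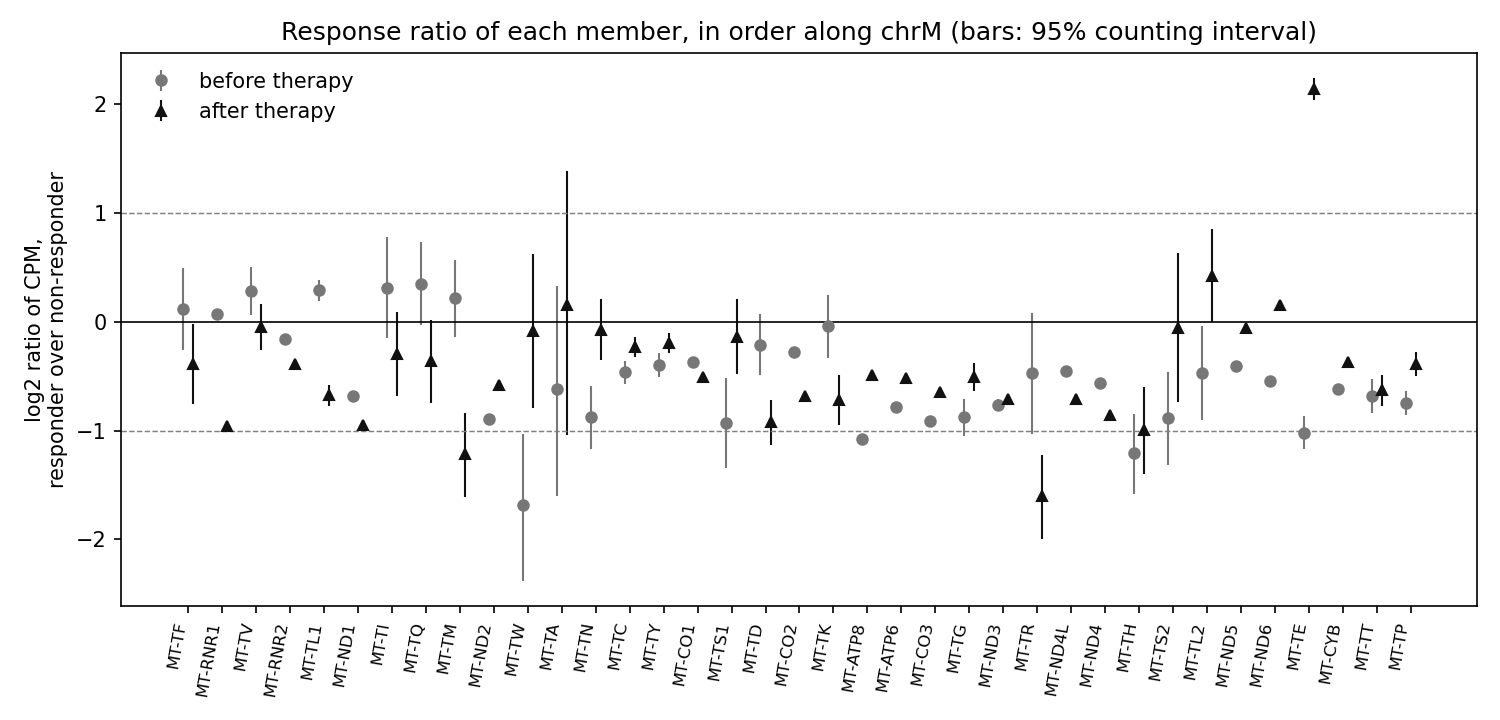
Log2 ratio of CPM, responder over non-responder, for all 37 members in gene order along chrM, before (circles) and after therapy (triangles), with 95% counting intervals and dashed lines at 2-fold. All 13 protein-coding genes lie below 0 before therapy and 12 after it, and MT-TE after therapy stands alone at 2.14. Wide intervals belong to tRNA genes with few counts.

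A fit over all 4 libraries at once, with response and time as additive terms, left 1 residual degree of freedom. That degree of freedom is the difference between the response ratios before and after therapy, which the fit treats as error. The SEs and p-values below therefore do not measure spread between patients. In edgeR's quasi-likelihood test, all 15 protein-coding and rRNA genes had negative response coefficients, with a median of -0.63 on the log2 scale against 0.04 over all genes. None of the 37 members passed an adjusted p of 0.05, and 0% of the 24113 genes tested did (edgeR, Benjamini-Hochberg). The lowest adjusted p among the members was 0.558. At an unadjusted p under 0.05 stood 11 members, all protein-coding, and 2119 genes in all (8.79%). The members without such a p among the 13 were MT-ND5 and MT-ND6. The unadjusted count was 8 members without the filter on low counts and 9 with library size as the only scaling, and it was 3 (MT-ND2, MT-ND3 and MT-ND4) in a fit of response without time. MT-ND1 had the largest coefficient of the 15, -0.87 ± 0.175 (SE, edgeR adjusted p = 0.558). MT-ND6 had the smallest, -0.25 ± 0.256 (edgeR adjusted p = 0.802). Between them lay MT-RNR2, at -0.32 ± 0.172 (edgeR adjusted p = 0.631).

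The call depended on the tool. With DESeq2 on the same design, 4 of the 37 members passed an adjusted p of 0.05, as did 4.61% of 19438 genes. These were MT-ND1 (DESeq2 adjusted p = 0.00907), MT-CO3 (0.0196), MT-ND4 (0.0261) and MT-ND2 (0.0344), all lower in responders. With limma-voom no member passed, 12 had an unadjusted p under 0.05, and the lowest adjusted p among the members was 0.319.

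The comparison of times asked how the same genes stood before and after therapy within each response group. In responders, 12 of the 15 genes were lower after therapy, as were 52.8% of all 12328 genes. The median log2 ratio of the 15 was -0.15 against -0.04 for all genes. The count and the median of the 15 depend on the scaling. With TMM or DESeq2 size factors 8 of the 15 were lower and 7 higher. Their median was then -0.04 and -0.01, while that of all genes moved to 0.07 and 0.10. MT-ND2, MT-ATP6, MT-ND3 and MT-ND5 are the genes that changed sign. MT-RNR1 was 2.49-fold lower after therapy, the only 1 of the 15 that differed 2-fold. MT-TL1 was 2.41-fold lower, and MT-TE was higher as given above. Over all genes, 6.10% were 2-fold lower and 6.49% were 2-fold higher. MT-CO2 was 1.8-fold and MT-ND1 1.68-fold lower after therapy, whereas MT-ATP8 was 1.59-fold higher. MT-CYB, MT-ATP6, MT-ND2, MT-ND3 and MT-ND5 differed by less than 1.04-fold.

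In non-responders 12 of the 15 genes were lower after therapy under each scaling tried. In CPM 48.3% of all 12584 genes were lower. The median log2 ratio of the 15 in CPM was -0.28 against 0.03 for all genes. No member with 5 CPM differed 2-fold, where 9.04% of all genes were 2-fold lower and 14.7% were 2-fold higher. Among the 15, the largest differences were in MT-CO3, at 1.5-fold lower, and MT-ND6, at 1.47-fold lower. Of the tRNA genes with 5 CPM, MT-TE was 1.81-fold lower and MT-TP, for proline, 1.72-fold lower. MT-RNR2, MT-ATP8 and MT-ND4 were 1.06-fold, 1.06-fold and 1.02-fold higher. In the additive edgeR fit, no member passed the threshold for time, and 0% of the 24113 genes did. The lowest adjusted p among the members was 0.423 (edgeR). MT-CO2 and MT-ND1 alone had an unadjusted p under 0.05, as did 2732 genes (11.3%). DESeq2 called no member for time and 7.62% of 19905 genes, and limma-voom called no member.

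Shares within the mitochondrial counts do not depend on how libraries are scaled, and they show whether members moved in proportion. MT-CO1 kept nearly the same share, at 21.6%, 20.8%, 20.8% and 21.0%. MT-RNR2 held 26.5%, 21.9%, 28.6% and 26.6%, lowest in the non-responder before therapy. MT-CYB held 7.87%, 8.97%, 9.52% and 8.75%. As log2 ratios of responder over non-responder, the shares of the 15 genes had an SD across genes of 0.31 before and 0.30 after therapy, and 7 and 10 of them were within 0.25 of 0. The extremes were MT-ATP8 at -0.64 and MT-RNR1 at 0.50 before therapy, and MT-RNR1 at -0.47 and MT-ND6 at 0.64 after it. The 2 response patterns had little in common: across the 15 genes, Pearson's r between the share ratios before and after therapy was -0.06, given as a description, since the genes share their 4 libraries. MT-ND1, MT-ND2, MT-ND3, MT-ND4, MT-ND4L, MT-CO3 and MT-ATP6 had a lower share in the responder at both times, MT-RNR2 and MT-ND5 a higher one, and 6 genes changed sign. The widest spread was between the responder libraries, with an SD of 0.47 and a range from -1.06 (MT-RNR1) to 0.92 (MT-ATP8) for after over before. The narrowest was between the non-responder libraries, with an SD of 0.22.

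**Figure D5:**
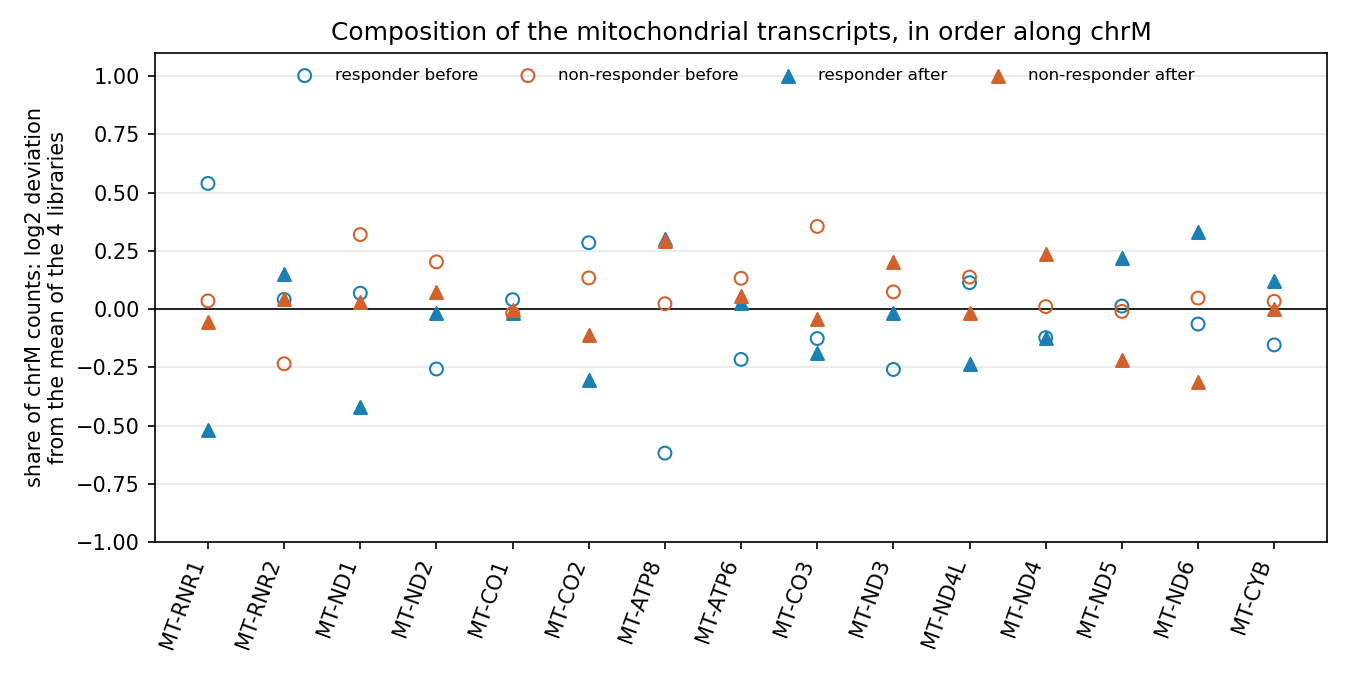
Share of the mitochondrial counts held by each protein-coding and rRNA gene, as the log2 deviation from its mean over the 4 libraries, in gene order along chrM. MT-CO1 stays near 0, and the widest spreads are those of MT-RNR1 and MT-ATP8, in which a responder library is farthest from 0.

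Position along chrM went with 1 of these patterns. The responder before therapy was the highest of the 4 libraries for 7 members: MT-TF, MT-RNR1, MT-TV, MT-TL1, MT-TI, MT-TQ and MT-TM. All 7 are among the first 9 genes counted from MT-TF, between positions 577 and 4469, and 0 are among the other 28. The exceptions within the stretch were MT-RNR2 and MT-ND1. The 7 were also the only members that were higher in the responder than in the non-responder before therapy. Of all genes with 5 CPM, 58.3% were. The log2 ratios of the 7 ran from 0.07 (MT-RNR1) to 0.35 (MT-TQ). MT-TI and MT-TQ overlap by 3 bases. The counting interval of the ratio was above 0 for MT-RNR1, MT-TV and MT-TL1 and included 0 for the other 4, which had few counts. With TMM or DESeq2 scaling MT-RNR1 changed sign and the other 6 remained above 0. This pattern was noticed in the data and no test was made of it.

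Some reads of mitochondrial RNA can be counted at nuclear copies, since the nuclear genome holds inserted stretches of mitochondrial DNA. By their symbols, 190 nuclear genes are such near-copies or relatives of MT-RNR2, and 66 had a count. The 4 with the highest mean CPM lay in 1 block on chromosome 1 that keeps the gene order of chrM. MTATP6P1 (ENSG00000248527, chromosome 1: 633696 to 634376) stood at 454, 719, 371 and 829 CPM, which is 28.4%, 26.2%, 23.3% and 36.4% of MT-ATP6. MTND2P28 (chromosome 1: 629640 to 630683) stood at 101, 211, 187 and 184 CPM, or 14.1%, 16%, 26.6% and 17.4% of MT-ND2. MTND1P23 and MTATP8P1 stood at 8.90% to 10.6% of MT-ND1 and 2.02% to 5.13% of MT-ATP8. A further entry of the block, found by its place after the values were seen, carries the symbol MIR6723 (ENSG00000237973, chromosome 1: 631074 to 632616), is 1543 bases long and lies where MT-CO1, of 1542 bases, would lie. It stood at 1076, 1304, 1011 and 1428 CPM, 11.6% to 14.4% of MT-CO1. The whole block held counts equal to 4.69%, 4.79%, 5.10% and 5.69% of the chrM counts.

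The levels of MT-ATP6, MT-ND2, MT-CO1 and MT-ND1 are therefore uncertain by the amounts of their copies, and reads cannot be assigned between copy and original from these files. Adding the counts of near-copies to each gene left the direction of every response ratio as it was. The ratio of MT-ATP6 went from -0.78 to -0.75 before therapy and from -0.52 to -0.67 after it, and that of MT-ND2 from -0.89 to -0.91 and from -0.58 to -0.48. That of MT-CO1 stayed at -0.51 after therapy and went from -0.37 to -0.36 before it. In responders the time ratio of MT-ND2 went from -0.02 to 0.13. Outside chromosome 1, 2 near-copies were far higher in the responder after therapy than elsewhere. MTRNR2L8 on chromosome 11 had 116, 131, 5302 and 135 counts. MTND4P12 on chromosome 5 had 238, 306, 3026 and 816 counts.

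Nuclear genes that copy, transcribe and translate mitochondrial DNA were set beside the members, from lists of known function. edgeR called 0 genes of every list at an adjusted p of 0.05, for response and for time. Since it called 0% of all 24113 genes tested, this is no result about the lists. The genes named from each list were picked for ratios of the same sign in both pairs, so that agreement is not a result. Of 17 genes for copying and transcribing mitochondrial DNA with 5 CPM before therapy, 10 were higher and 7 lower in the responder, with a median log2 ratio of 0.22. After therapy 11 of 18 were higher, with a median of 0.17. These are near the shares over all genes, of which 58.3% were higher in the responder before therapy and 56.6% after it. MGME1, a nuclease of mitochondrial DNA replication, stood at 21.6, 11.3, 24.8 and 10.8 CPM, higher in both responder libraries. POLG2, the accessory subunit of the mitochondrial DNA polymerase, went the other way at 13.7, 22.3, 14.2 and 23.2 CPM. TFB1M, which methylates the 12S rRNA, stood at 25.3, 5.21, 15.9 and 11.7 CPM.

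Genes that process or stabilise mitochondrial RNA had medians of 0.24 before and 0.25 after therapy, with 17 of 29 and 19 of 30 higher in the responder, again near those shares. Its 4 named genes pointed both ways. NSUN4, an rRNA methyltransferase, stood at 17.4, 27.6, 17.8 and 30.2 CPM and RNMTL1, another, at 20.7, 40.5, 18.9 and 27.7 CPM, both lower in the responder. RPUSD3, of the pseudouridine synthase family, stood at 58.3, 36.1, 31.5 and 20.3 CPM. FASTKD1, of a family that acts on mitochondrial mRNA, stood at 27.1, 7.50, 26.0 and 17.2 CPM, higher in the responder as RPUSD3 was. Mitochondrial translation factors had medians of -0.07 and 0.24, with 6 and 12 of 14 higher. MTIF2, the initiation factor, stood at 34.3, 20.8, 27.3 and 21.0 CPM. The proteins of the mitochondrial ribosome, all nuclear-encoded, were higher in the responder in 57 of 76 before therapy and 59 of 76 after it, beside the 58.3% and 56.6% of all genes, with medians of 0.36 and 0.19 beside 0.15 and 0.09. Their direction was opposite to that of the rRNAs after therapy, when both rRNAs were lower. MRPS31, of the small subunit, stood at 45.0, 16.1, 49.3 and 25.2 CPM.

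The nuclear-encoded partners of the mitochondrial subunits had median response ratios nearer to those of all genes (0.15 and 0.09) than to those of the mitochondrial genes. For complex I, 21 of 37 nuclear subunits were higher in the responder before therapy and 23 of 37 after it, with medians of 0.07 and 0.06. With TMM and DESeq2 scaling, 18 and 17 of the 37 were higher before therapy, and that median was -0.01 and -0.03. For complex III the medians were 0.16 and -0.05 over 9 genes, for complex IV -0.04 and -0.08 over 11, and for complex V 0.27 and 0.05 over 15. COX4I1, a nuclear subunit of complex IV, stood at 314, 440, 219 and 331 CPM, with both responder libraries below both non-responder libraries. That pattern was found in 14.2% of the 11560 genes that reached 5 CPM in a library of each pair. In the comparison of times, by contrast, the nuclear subunits were mostly lower after therapy. Of the 37 complex I genes 33 were lower in responders and 29 in non-responders, with medians of -0.55 and -0.39, beside 52.8% and 48.3% of all genes that were lower. For complex IV, 11 and 10 of 11 were lower, with medians of -0.46 and -0.37.

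Genes for mitochondrial mass and membranes had medians of -0.06 and -0.12 over 16 genes. The inner-membrane organiser IMMT stood at 117, 73.7, 115 and 72.8 CPM, and the outer-membrane channel VDAC2 at 117, 159, 96.7 and 124 CPM. Regulators of mitochondrial biogenesis had medians of -0.24 and 0.25 over 10 genes. Mitophagy and stress genes had medians of 0.11 and 0.19 over 13 genes. In each pair 8 were higher and 5 lower in the responder, beside the 58.3% and 56.6% of all genes that were higher. In this list DDIT3, a stress-induced transcription factor, stood at 59.2, 200, 46.9 and 143 CPM. ATF4, which acts upstream of it, stood at 122, 202, 87.1 and 149 CPM, and BNIP3L at 68.7, 112, 85.8 and 108 CPM. All of these were lower in both responder libraries. BNIP3, at 26.5, 18.3, 26.0 and 13.3 CPM, was higher in both. The rule by which these genes were named required the same direction in both pairs.

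Markers of other cells and of nuclear RNA differed between the same libraries. The sort markers CD8A, CD8B, CD3D, CD3E, CD3G and ITGAL summed to 4647, 3637, 4453 and 3113 CPM. The 12 monocyte and neutrophil markers summed to 131, 192, 1896 and 9070 CPM. After therapy all 12 were at least 2-fold lower in the responder, where 8.64% of 12366 genes were. Of the markers, LYZ stood at 8.71, 34.9, 776 and 3520 CPM. The 9 platelet markers summed to 34.4, 57.0, 19.3 and 178 CPM and the 6 B and plasma cell markers to 73.4, 61.3, 89.2 and 80.6 CPM. The 5 dendritic cell markers summed to 2.08, 3.04, 4.40 and 53.0 CPM, with 2, 3, 2 and 0 of them at 0. Red cell markers summed to 3.00, 21.9, 3.82 and 5.26 CPM. The part of these cells in the mitochondrial levels was not tested. In the pair from before therapy, the mitochondrial share was 4.03% in the responder against 5.43%. The monocyte and neutrophil, platelet, dendritic and red cell sums were also lower in that responder library. The B and plasma cell sum and the sum of the sort markers were higher. In the pair from after therapy, the mitochondrial share was 3.37% in the responder against 4.75%. There the monocyte and neutrophil sum was 1896 against 9070 CPM, the platelet sum 19.3 against 178 and the dendritic sum 4.40 against 53.0. The red cell sum was also lower in that responder library, and the B and plasma cell and sort marker sums were higher. MALAT1, an abundant RNA kept in the nucleus, gave 1.45%, 4.18%, 1.60% and 2.19% of all counts, so it too was higher in both non-responder libraries. The 50 most abundant genes outside chrM weigh on the total: without them the mitochondrial share was 4.77%, 6.62%, 3.99% and 5.74%, in the same order of libraries as before.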

How the data were processed

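Full-length cDNA was made with a SMARTer Ultra Low kit and paired reads of 101 bases were sequenced, per the labels' protocols. The submitters' processing notes name bcl2fastq 1.8.4, TopHat2 and hg38. Not given in the sources used here are the counter, the strand setting, the annotation and how reads that map to several places were treated. The deposited files hold raw counts per gene (64253 rows), per the file headers. Depth was 65500644 to 129773591 counts per library.

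Members, lists and comparisons were chosen with earlier results of these data known. Named were all protein-coding and rRNA members, the 4 tRNA genes with the most counts, the 6 near-copies with the highest mean CPM, and up to 4 genes per list by the smaller of the ratios in both pairs, where the ratios share a sign. The chromosome 1 entries added to these, and the tRNA genes of the position pattern, were named after their values were seen. Tests over all genes left out 4146 genes on other contigs and 617 sex-informative genes, leaving 59490, while library totals hold all counts. CPM ratios carry exact conditional binomial 95% intervals. The additive fit used edgeR 4.0.16 (TMM, filterByExpr, quasi-likelihood, Benjamini-Hochberg, threshold 0.05, common biological coefficient of variation 0.66) in R 4.3.3. It was run on simulated data with less variation than this and purely additive effects, which cannot show how it performs on these libraries. The p-values of the fit reflect the spread among these libraries alone, and the SE printed is the coefficient's size over the square root of F. DESeq2 1.42.0, limma 3.58.1, other scalings, filters and denominators were alternatives. No human sequence was used here, so none is printed.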

Additional observations from a re-analysis of the deposited data

Results flagged for a closer look

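Several members pointed in opposite directions in the 2 pairs of libraries, with counting intervals that excluded 0. These differences were not tested, since each group held 1 library. For response, as log2 ratios of responder over non-responder before and after therapy, MT-TE was at -1.02 and 2.14, MT-RNR1 at 0.073 and -0.96, MT-TL1 at 0.29 and -0.68, and MT-ND6 at -0.54 and 0.15. The ratio of MT-RNR1 before therapy fell below 0 with TMM and DESeq2 scaling. For time, as log2 ratios of after over before in responders and in non-responders, MT-TE was at 2.30 and -0.85 and MT-ND6 at 0.14 and -0.55. MT-RNR2 was at -0.15 and 0.086, MT-ND4 at -0.26 and 0.033, MT-CYB at 0.019 and -0.23, and MT-TD, the gene of the aspartate tRNA, at -0.28 and 0.44. The directions of these 6 time differences held under all scalings tried. The 14 tRNA genes with under 500 counts in every library were not looked at in this way.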

How the results depend on the processing

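The median log2 ratio of the 15 protein-coding and rRNA genes was recomputed with TMM, with DESeq2 size factors, with counts outside chrM as the total, and over the 13 protein-coding genes alone, in that order. Before therapy it went from -0.56 to -0.65, -0.66, -0.59 and -0.62, and after therapy from -0.58 to -0.60, -0.60, -0.61 and -0.58. In responders the time ratio went from -0.15 to -0.044, -0.014, -0.16 and -0.051, and in non-responders from -0.28 to -0.24, -0.24, -0.29 and -0.32. None of these changed sign, but the median of the 13 protein-coding genes in the time ratio of responders, -0.051, became 0.053 with TMM and 0.083 with DESeq2. Of 444 values of single members under other scalings, 10 changed sign: MT-RNR1 in the response before therapy, and MT-ND2, MT-ATP6, MT-ND3 and MT-ND5 in the time ratio of responders, each with TMM and with DESeq2. With a minimum of 1 in place of 5 CPM, genes at least 2-fold apart numbered 5393 in place of 2642 and 3742 in place of 1830 for response before and after therapy, and 3593 in place of 1552 and 5925 in place of 2993 for time in responders and non-responders. Without the 50 most abundant other genes the mitochondrial share was 4.77%, 6.62%, 3.99% and 5.74%. DESeq2 called 4 members and 896 genes for response and 1516 genes for time, where edgeR called 0, and edgeR without a filter and limma-voom each called 2 genes for time. The cause was not tested. All other fits called 0 members. No library could be left out, since the additive fit then keeps no residual degree of freedom. The additive fit already sets the libraries of each time side by side. No paired analysis was possible because the labels do not tie libraries to patients across the times. Depth limits the tRNA genes, whose smallest total over the 4 libraries was 68 counts.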
